A study of Mus musculus with 10 samples.

Results

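Cells split glucose by glycolysis, store it as glycogen and, in liver, make it anew by gluconeogenesis, and most steps of these routes are run by isoenzymes coded by different genes in different tissues. The messages of these isoenzymes were compared over 5 mouse tissues. The set was a list of 36 genes for the enzymes of glycolysis, glycogen metabolism and gluconeogenesis, and a gene was measured where a probe set of the arrays carried its symbol alone. By this rule 26 of the 36 had values, out of 6137 genes named in this way in all. They comprised 14 genes of glycolysis, 9 of glycogen metabolism and 3 of gluconeogenesis, counting Fbp2, known from muscle. The other 10 (Gpi1, Pfkp, Aldoc, Pgam2, Eno1, Pklr, Pygl, Gys2, Ugp2 and Pck1) had none and were not analysed here. Among them are the liver forms of pyruvate kinase, glycogen phosphorylase and glycogen synthase, so for these steps only the forms known from muscle or brain were read.

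As background, hexokinase traps glucose in the cell as glucose 6-phosphate, phosphofructokinase commits it to glycolysis, and lactate dehydrogenase turns the end product pyruvate into lactate and back. Skeletal muscle breaks its own glycogen down through glycogen phosphorylase, which phosphorylase kinase switches on, and burns the product in place. Liver instead releases glucose into the blood, for which it needs fructose bisphosphatase and glucose-6-phosphatase. Brain lives largely on glucose from the blood, and white fat takes glucose up in response to insulin.

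The RNA came from adult C57BL/6 female mice and from 5 sources: white adipose tissue, hypothalamus, liver, muscle and pancreas. No treatment is named, and the labels do not say which muscle was taken, how many animals gave each sample or whether animals were pooled. The adipose arrays are titled with a preconfluent state, while their source label names the tissue, and the source label was followed. Each tissue was hybridised to 1 array of chip A and 1 of chip B, so there were 10 arrays and no replicates. The spread between animals is thus unknown, and no comparison was tested.

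Values are scaled fluorescence intensities and can lie below 0. An array's noise bound was the size of its 1st percentile, and a value at or below it is called not above noise. For chip A the bounds were 1166 in pancreas, 1065 in muscle, 295.4 in liver, 258.0 in hypothalamus and 389.6 in adipose tissue, and for chip B they were 2606, 1638, 792.0, 649.1 and 918.2 in the same order. The pancreas and muscle arrays were thus the least sensitive. A ratio is given as "at least" where the lower tissue was replaced by its higher noise bound. Levels of different probe sets are not comparable, so each gene is compared only with itself across tissues. Most cell type markers followed the labels, with all 3 acinar markers measured above noise only in pancreas. In muscle all 6 fast fibre markers and all 3 slow fibre markers measured were called. In adipose tissue all 5 adipocyte markers were called. All 6 hepatocyte markers were above noise in liver, and all 6 neuron markers in hypothalamus. Some crossed over: the hepatocyte gene Alb read 26258 in pancreas, above its 18124 in liver, and 8226 in muscle, and the muscle gene Ckm read 2301 in adipose tissue against 159170 in muscle. Of 3 islet markers only Ins2 was above noise in pancreas, and 4 of 5 glia markers were so in hypothalamus. All 3 fibroblast markers were above noise in pancreas, muscle and adipose tissue. The neuron gene Stmn3 and the red cell gene Hba-a1 were above noise in all 5 tissues.

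Muscle held the highest value for 13 of the 22 member genes that were above noise anywhere, hypothalamus for 3, adipose tissue for 3, liver for 2 and pancreas for 1. Among all 6137 genes, muscle was highest and above noise for 8.59%, hypothalamus for 14.7%, adipose tissue for 7.77%, liver for 8.72% and pancreas for 9.06%. These shares are to be set against all 26 members, and the counts of 3, 2 and 1 are too small to set apart from them. The 13 were Hk2, Aldoa, Tpi1, Gapdh, Eno3, Pkm, Ldha, Pygm, Phkg1, Phka1, Gys1, Pgm1 and Gyg, of which Tpi1 and Gapdh were highest in hypothalamus after quantile normalization. The other 4 members, Pfkm, Pgk1, Pgm2 and Fbp2, were above noise in no tissue. A gene was called for a tissue where its value was above noise and exceeded every other tissue 4-fold or more, with the median array intensity (174.8 for chip A, 122.5 for chip B) standing in for lower values. By this rule 7 of the 26 were called for muscle, against 1.19% of all genes: Aldoa, Eno3, Pkm, Pygm, Phkg1, Phka1 and Pgm1. The probe sets of most members are of relaxed design and may also bind related genes or pseudogenes. Among the 6 members with a stricter probe set 2 were called for muscle, Pygm and Phka1, against 0.975% of 1846 genes. Fbp1 was the single member called for liver, where the share of all genes was 2.75%. Eno2 was the single member called for hypothalamus, against 2.26% of all genes. None was called for pancreas, against 1.91%, or for adipose tissue, against 1.17%. In whole tissues fewer cells of a type and less message per cell cannot be told apart.

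The median over the 26 members of the log2 value minus the mean of the other 4 tissues was 2.40 in muscle, where the same median over all genes was 0. It was -1.08 in pancreas, -0.70 in liver, -0.53 in hypothalamus and -0.0076 in adipose tissue. Over all genes it was 0 in pancreas, -0.18 in liver, -0.045 in hypothalamus and -0.025 in adipose tissue. The low medians of pancreas and hypothalamus rested on the muscle arrays as a reference: without them they were -0.0603 and 0.0634. Member genes were also read more often than others, with 84.6% above noise in at least 1 tissue against 56.5% of all genes.

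**Figure D1:**
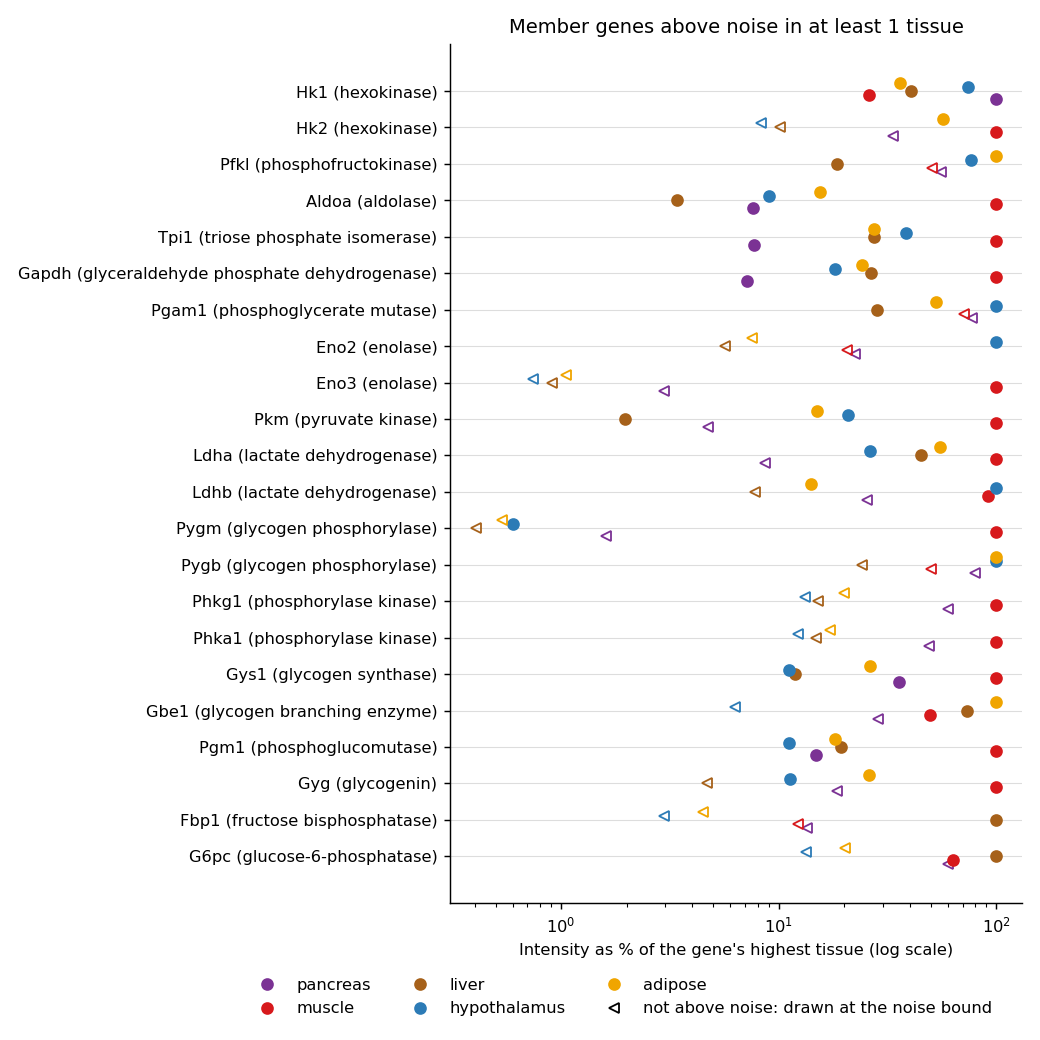
Scaled intensity of each of the 22 member genes above noise, as a percentage of the gene's highest tissue on a log axis, with 1 array per point. Filled circles are values above noise and open triangles mark the noise bound of a tissue that was not above it. Muscle points lie at 100% for 13 genes, and those of Eno3 and Pygm stand farthest from the other tissues.

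At the entry step the hexokinases Hk1 and Hk2 differed in the tissues where they were above noise. Hk1, the hexokinase of most tissues including brain, was above noise in all 5: it read 9949 in pancreas, 2582 in muscle, 4010 in liver, 7341 in hypothalamus and 3597 in adipose tissue. Pancreas and hypothalamus were the highest and muscle the lowest. A second probe set of Hk1 on chip A kept that pattern, with 5530 in pancreas, 4588 in hypothalamus and 1605 in muscle. The place of pancreas was not settled. It led by 1.36-fold here, hypothalamus led it by 1.21-fold when arrays were scaled by their 75th percentile, and with scaling by the hybridisation spikes adipose tissue came second, 2.36-fold below hypothalamus. Muscle was the lowest under each of these scalings. Hk2, the hexokinase tied to insulin-responsive tissues, was above noise in muscle and adipose tissue only. It read 7813 in muscle, 4460 in adipose tissue, 167.6 in liver, 154.9 in hypothalamus and 6.01 in pancreas. Muscle exceeded adipose tissue by 1.75-fold, liver by at least 9.87-fold and hypothalamus by at least 12.0-fold. The lead over adipose tissue was 1.44-fold with 75th percentile scaling and 1.10-fold with spike scaling, so the order of muscle and adipose tissue was not resolved.

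Because both genes were read on chip B, the change of their ratio between tissues could be given without setting one probe set's level against the other's. From hypothalamus to muscle the ratio of Hk1 to Hk2 fell at least 34.2-fold, and from liver to muscle at least 15.3-fold. From adipose tissue to muscle it fell 2.44-fold, with all 4 values above noise.

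**Figure D2:**
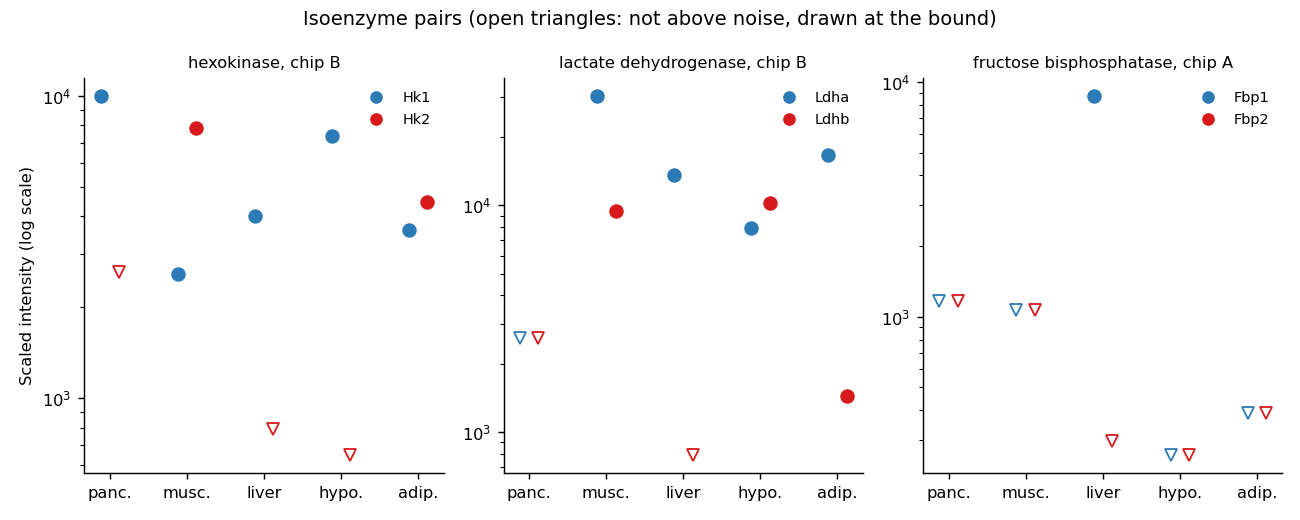
Scaled intensity on a log axis of isoenzyme pairs read on 1 chip, for hexokinase, lactate dehydrogenase and fructose bisphosphatase, by tissue, with 1 array per point. Open triangles mark the noise bound where a gene was not above it, heights of different genes are not comparable, and Hk2, Ldhb and Fbp1 each drop to the bound in 2 or more tissues.

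Phosphofructokinase was read poorly in muscle. Pfkm, its muscle form, was above noise nowhere: its value was 687.5 in muscle, under that array's bound of 1065, 111.4 in hypothalamus, 96.5 in adipose tissue, 35.9 in liver and -52.0 in pancreas. Pfkl, the liver form, read 2098 in adipose tissue, 1603 in hypothalamus, 388.1 in liver, 482.0 in muscle and -224.1 in pancreas. Only the first 3 were above noise, and liver, the tissue of its name, was the lowest of them. Adipose tissue exceeded liver by 5.41-fold and hypothalamus by 1.31-fold.

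In the middle of glycolysis muscle led for Aldoa, and for Tpi1 and Gapdh except after quantile normalization. Aldoa codes for aldolase A, which splits the 6-carbon sugar, and read 152584 in muscle, 23541 in adipose tissue, 13720 in hypothalamus, 11583 in pancreas and 5202 in liver. Muscle was 6.48-fold above adipose tissue and 29.3-fold above liver. Both other probe sets of Aldoa ranked muscle first as well, by 5.53-fold and 5.69-fold. Quantile normalization, which gives the brightest probe sets of all arrays like values, left a margin of 1.13-fold and no call. Tpi1, triose phosphate isomerase, read 35071 in muscle, 13515 in hypothalamus, 9563 in liver, 9559 in adipose tissue and 2688 in pancreas. Muscle led hypothalamus by 2.60-fold, and by 2.36-fold in the chip A probe set, so Tpi1 was not called. The lead was 1.41-fold with spike scaling, and after quantile normalization hypothalamus led muscle by 1.25-fold.

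Gapdh, often taken as a constant reference, differed widely over these tissues. Its array probe set read 89567 in muscle, 23725 in liver, 21490 in adipose tissue, 16181 in hypothalamus and 6383 in pancreas, a 14.0-fold span. Muscle exceeded liver by 3.78-fold, just short of a call. The arrays also carry 3 sense control probe sets of Gapdh on each chip, and all 6 readings placed muscle 4.35-fold to 5.80-fold above the next tissue. The span from pancreas to muscle was wider in each of the 6 than in the array probe set. These controls read 1677 to 5622 in pancreas and 68330 to 126186 in muscle. Their antisense counterparts gave no muscle value above noise. Under quantile normalization hypothalamus led muscle by 1.12-fold, so the lead of muscle for Gapdh, unlike its low value in pancreas, depended on the scaling.

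The control probe sets gave a repeat within these data, since the same message was read on both chips. Over 64 ratios of a tissue pair from 8 control probe sets, the chips differed by a median of 1.17-fold and at most by 1.66-fold. This covers a repeated hybridisation and not a second animal. For 7 of the 22 genes the ratio of highest to next tissue was under 1.66-fold, and these orders are not resolved: Hk1, Pfkl, Pgam1, Ldhb, Pygb, Gbe1 and G6pc. For Pgam1 that ratio is a lower bound. All 6 members with more than 1 array probe set had the same highest tissue in each.

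**Figure D3:**
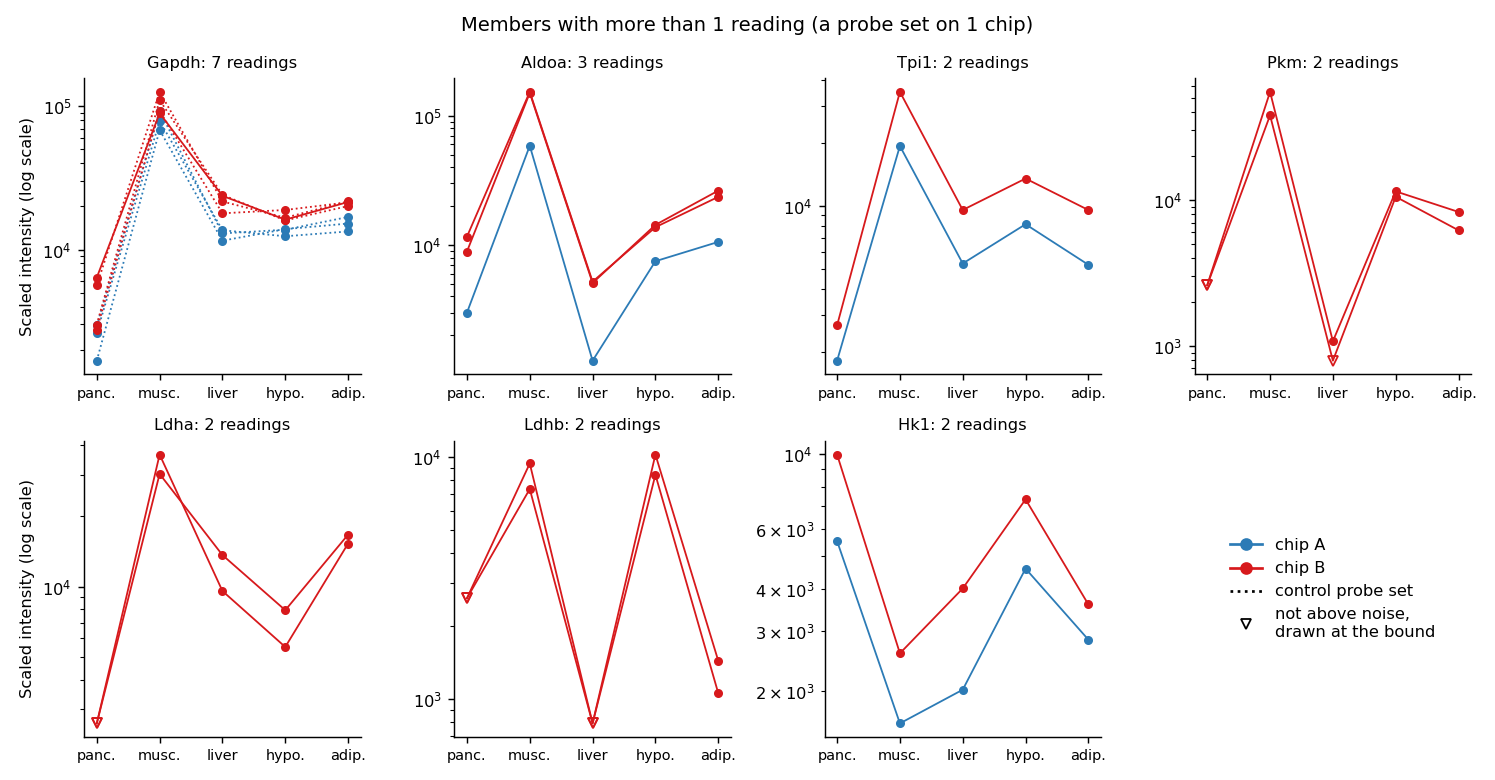
Scaled intensity on a log axis, by tissue, for the 7 members with more than 1 reading, each line being 1 probe set on 1 chip and dotted lines the Gapdh control probe sets. Lines of a gene have like shapes, with muscle at the peak for Gapdh, Aldoa, Tpi1, Pkm and Ldha (for Gapdh and Tpi1 hypothalamus after quantile normalization), peaks in muscle and hypothalamus for Ldhb, and the lowest value in muscle for Hk1.

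Pgk1, phosphoglycerate kinase, gave values from -362.8 to -17.9 and so was not read by its probe set in any tissue. Pgam1, the phosphoglycerate mutase of non-muscle tissues, read 1508 in hypothalamus, 796.8 in adipose tissue, 428.1 in liver, 238.2 in pancreas and -344.7 in muscle. The first 3 were above noise. The muscle form Pgam2 was among the genes not analysed.

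Each measured enolase was above noise in a single tissue. Eno3, the muscle enolase, read 87535 in muscle and between -240.0 and -45.9 in the other 4 tissues, at least 33.6-fold apart. That bound was set by the pancreas array, and without the pancreas arrays it was 95.3-fold. Eno2, the enolase of neurons, read 5196 in hypothalamus, 540.3 in pancreas, 406.9 in muscle, 108.5 in adipose tissue and 59.9 in liver. Hypothalamus alone was above noise, at least 4.46-fold over pancreas, and at least 13.3-fold over liver and adipose tissue. The Eno2 window below shows the 250 bases up to its annotated start, from RefSeq on GRCm38.p6 and written 5′ to 3′, as the start region of the single member called for hypothalamus. Capitals mark its only match to the E-box CANNTG, the general site of basic helix-loop-helix factors.
Eno2, chr6:124769674-124769923, minus strand: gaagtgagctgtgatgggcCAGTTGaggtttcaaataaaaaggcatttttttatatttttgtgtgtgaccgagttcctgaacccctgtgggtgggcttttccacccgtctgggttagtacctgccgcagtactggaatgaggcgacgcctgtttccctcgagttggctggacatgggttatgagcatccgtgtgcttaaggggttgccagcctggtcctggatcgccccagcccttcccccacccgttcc

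At the last step Pkm, the pyruvate kinase of muscle and brain, read 54967 in muscle, 11442 in hypothalamus, 8272 in adipose tissue, 1896 in pancreas and 1076 in liver. Liver, which uses the form coded by Pklr, was the lowest tissue above noise, and muscle was 51.1-fold and hypothalamus 10.6-fold above it. Its call for muscle was fragile: the 4.80-fold lead over hypothalamus was 3.61-fold in the second probe set, 3.54-fold with 75th percentile scaling, 2.62-fold with spike scaling and 1.94-fold after quantile normalization.

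The subunits of lactate dehydrogenase parted between liver and hypothalamus. Ldha, the subunit favoured in tissues that make lactate, read 30218 in muscle, 16653 in adipose tissue, 13619 in liver, 7924 in hypothalamus and 29.1 in pancreas. Muscle led adipose tissue by 1.81-fold, or 2.40-fold in the second probe set. The order of muscle and adipose tissue was not resolved, since the lead was 1.49-fold with 75th percentile scaling, 1.14-fold with spike scaling and 1.10-fold after quantile normalization. Ldhb, the subunit favoured in tissues that burn lactate, read 10230 in hypothalamus, 9399 in muscle, 1438 in adipose tissue, 41.9 in liver and -552.9 in pancreas. Hypothalamus and muscle differed by 1.09-fold (2.0-fold with spike scaling), and both exceeded adipose tissue, by 7.11-fold and 6.53-fold. Liver therefore held Ldha without Ldhb above noise. The ratio of Ldha to Ldhb was at least 22.2-fold higher in liver, 14.9-fold higher in adipose tissue and 4.15-fold higher in muscle than in hypothalamus. In pancreas neither subunit was above noise, which at a bound of 2606 does not show that they are absent.

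Ldha is a textbook target of the hypoxia-inducible factor, whose sites hold the core ACGTG. Its window at the first annotated start held 5 matches to that core on either strand, the most of any member window, and is shown with them in capitals. The window at its second annotated start held 0 and is not shown. The motif CACGTG counts as 2, since it reads the same on both strands.
Ldha, chr7:46845554-46845803, plus strand: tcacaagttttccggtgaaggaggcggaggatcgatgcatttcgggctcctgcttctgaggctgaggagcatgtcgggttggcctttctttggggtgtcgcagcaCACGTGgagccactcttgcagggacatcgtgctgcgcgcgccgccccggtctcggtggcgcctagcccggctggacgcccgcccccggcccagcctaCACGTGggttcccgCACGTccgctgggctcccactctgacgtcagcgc
The core was present in 14 of the 34 windows of the 26 members and in 16.6% of 32851 windows in the RefSeq table. Counted by gene, it was in 12 of 26 members and 18.5% of 27025 genes. The core holds a CG pair, and member windows had a median of 10.5 CG pairs against 6 in all windows. Among the 3 genes highest in hypothalamus it was in the window of Pgam1 and not in those of Eno2 and Ldhb. A match is a run of letters and not evidence of binding.

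For the breakdown of glycogen, Pygm had the largest bound on highest over next tissue of all members. Pygm, the muscle glycogen phosphorylase, read 72740 in muscle, 437.6 in hypothalamus, 181.9 in adipose tissue, 179.1 in pancreas and 123.7 in liver. Muscle and hypothalamus were above noise, 166-fold apart, and against the pancreas bound muscle was at least 62.4-fold higher. Pygb, the brain form, read 3262 in hypothalamus, 3272 in adipose tissue, 353.6 in pancreas, 351.1 in liver and 139.5 in muscle. Hypothalamus and adipose tissue were level and the only tissues above noise, both at least 4.12-fold over liver. Against the higher noise bounds of muscle and pancreas, both were at least 1.99-fold and at least 1.25-fold higher. Of 4 macrophage markers measured, Adgre1 was above noise in no tissue. Cd68, Csf1r and Mrc1 were above noise in adipose tissue, with Cd68 so in liver as well. Their part in the adipose values was not tested.

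Both measured subunits of phosphorylase kinase were called for muscle. Phka1, its muscle alpha subunit, read 5315 in muscle and between 199.9 and 537.9 elsewhere. Phkg1, its muscle catalytic subunit, read 1952 in muscle, 462.3 in pancreas and between -24.0 and 157.2 in the rest. No other tissue was above noise, and the noise bound of pancreas limited the ratios to at least 2.04-fold and at least 1.67-fold. With each array's noise bound as the floor neither was called. Without the pancreas arrays the bounds rose to 5.79-fold and 5.01-fold.

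On the side of synthesis muscle was highest for Gys1 and Gyg. Gys1, the glycogen synthase of muscle and most tissues, read 7980 in muscle, 2844 in pancreas, 2086 in adipose tissue, 947.6 in liver and 892.4 in hypothalamus. All 5 were above noise, and muscle was 2.81-fold above pancreas and 8.42-fold above liver. Gyg, glycogenin, which primes the glycogen particle, read 6326 in muscle, 1642 in adipose tissue, 709.2 in hypothalamus, 621.4 in pancreas and 92.8 in liver. Its lead of 3.85-fold over adipose tissue fell short of a call. Liver, a main glycogen store of the body, was not above noise for it, and muscle exceeded liver at least 21.4-fold. Gbe1, the branching enzyme, did not follow muscle: it read 4081 in adipose tissue, 2995 in liver, 2024 in muscle, 561.4 in pancreas and 242.7 in hypothalamus. Adipose tissue exceeded muscle by 2.02-fold and hypothalamus at least 15.8-fold.

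Pgm1, the main phosphoglucomutase, which links glucose 1-phosphate from glycogen to glucose 6-phosphate, read 23558 in muscle, 4565 in liver, 4255 in adipose tissue, 3496 in pancreas and 2615 in hypothalamus. Its call for muscle, 5.16-fold over liver, was lost at 3.73-fold with 75th percentile scaling. The gene was formerly named Pgm2. The gene now named Pgm2 gave values from -32.9 to 140.1, none above noise.

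Windows of 250 bases up to the annotated start are shown for 5 of the 7 genes called for muscle, those with a single annotated start, since they were high in the same tissue. They come from RefSeq on GRCm38.p6, are written 5′ to 3′ on the strand of the gene, and carry each match to CANNTG in capitals. Myogenic factors of muscle belong to the family that binds this motif.
Pygm, chr19:6384158-6384407, plus strand: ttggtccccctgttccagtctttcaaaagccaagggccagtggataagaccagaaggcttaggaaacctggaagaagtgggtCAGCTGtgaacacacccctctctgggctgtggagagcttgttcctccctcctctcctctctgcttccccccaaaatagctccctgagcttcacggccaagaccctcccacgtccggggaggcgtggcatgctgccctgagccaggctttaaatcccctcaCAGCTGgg
Eno3, chr11:70656926-70657175, plus strand: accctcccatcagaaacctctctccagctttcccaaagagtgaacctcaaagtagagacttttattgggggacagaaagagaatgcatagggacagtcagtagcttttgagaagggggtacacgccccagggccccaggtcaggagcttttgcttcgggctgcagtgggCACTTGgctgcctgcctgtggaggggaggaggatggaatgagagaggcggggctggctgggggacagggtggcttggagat
Phkg1, chr5:129879089-129879338, minus strand: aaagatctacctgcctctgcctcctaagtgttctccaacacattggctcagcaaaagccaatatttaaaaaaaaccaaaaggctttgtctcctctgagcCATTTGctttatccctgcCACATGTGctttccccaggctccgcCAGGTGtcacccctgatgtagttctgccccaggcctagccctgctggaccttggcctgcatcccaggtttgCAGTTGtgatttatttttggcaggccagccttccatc
Phka1, chrX:102644247-102644496, minus strand: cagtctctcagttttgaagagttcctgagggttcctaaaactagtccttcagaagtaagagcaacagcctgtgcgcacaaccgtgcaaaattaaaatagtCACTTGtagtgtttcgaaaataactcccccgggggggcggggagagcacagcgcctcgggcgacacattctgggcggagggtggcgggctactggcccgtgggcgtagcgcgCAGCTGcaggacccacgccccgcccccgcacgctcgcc
Pgm1, chr4:99929201-99929450, plus strand: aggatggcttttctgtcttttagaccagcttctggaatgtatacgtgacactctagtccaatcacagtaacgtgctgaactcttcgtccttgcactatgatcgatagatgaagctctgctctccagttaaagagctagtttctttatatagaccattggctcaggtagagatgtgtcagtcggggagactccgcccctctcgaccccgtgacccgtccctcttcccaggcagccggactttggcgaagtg
The Phkg1 window held 5 matches, a pair of which overlap, and the Pgm1 window held none. Over all 7 genes, 8 of 10 windows had a match, and over the members 25 of 34, against 66.2% of all windows. The narrower form CAGCTG, a subset of the former, was in Pygm at 2 places, in Phka1 and in the first window of Pkm. It was in 5 of 34 member windows and in 13.0% of all windows. The site of MEF2, the other textbook muscle factor, was in 0 of 34 member windows and 2.92% of all. The other motifs searched, on both strands, were the TATA box TATAAA in 3 of 34 windows against 12.4%, the GC box GGGCGG in 13 against 32.7%, and the CCAAT box CCAAT in 13 against 33.8%. Pfkm and Aldoa each have a pair of windows that overlap and so count some matches more than one time.

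Liver held the highest value for 2 of the 26 members, against 8.72% of all genes, a count too small to set apart from that share. Both were of gluconeogenesis. Fbp1, the liver fructose bisphosphatase, which reverses the phosphofructokinase step, read 8670 in liver and between -161.3 and 11.0 in the other 4 tissues. The difference was at least 7.44-fold against the pancreas bound and at least 22.3-fold against hypothalamus and adipose tissue. Its window, shown as the start region of the single member called for liver, held 1 match to CANNTG.
Fbp1, chr13:62888283-62888532, minus strand: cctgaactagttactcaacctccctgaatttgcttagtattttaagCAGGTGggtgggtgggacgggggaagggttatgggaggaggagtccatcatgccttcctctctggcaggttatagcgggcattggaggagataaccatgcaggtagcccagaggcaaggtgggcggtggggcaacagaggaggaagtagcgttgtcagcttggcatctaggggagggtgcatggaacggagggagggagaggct
Fbp2, the muscle form, had its highest value in muscle at 1028, just under the bound of 1065, with 282.2 in pancreas, 142.7 in liver, 43.2 in adipose tissue and 15.9 in hypothalamus. G6pc, the catalytic subunit of glucose-6-phosphatase, frees glucose for release. It read 1941 in liver, 1230 in muscle, 482.3 in pancreas, 234.1 in adipose tissue and 175.1 in hypothalamus. Liver exceeded muscle by 1.58-fold, within the range of a repeated hybridisation, and exceeded hypothalamus at least 7.52-fold. Of 6 hepatocyte markers measured, Alb, Apoa2 and Serpina1a were also above noise in muscle. They read 8226, 4023 and 2787 there, against 18124, 25929 and 28666 in liver. Apoh, Ttr and Hpd were not above noise in muscle. They read 41.2, 513.1 and 152.3 there, against 23015, 4144 and 15499 in liver. The part of hepatocyte message in the muscle value of G6pc was not tested. Without the muscle arrays G6pc was called for liver.

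Pairs of tissues were counted with the median array intensity, and not the noise bound, standing in for lower values. By this rule muscle was 4-fold or more above pancreas in 13 of 26 members, against 4.50% of all genes. It was so above liver in 11, against 5.20%, above hypothalamus in 13, against 4.90%, and above adipose tissue in 10, against 3.06%. These comparisons share the muscle arrays. Some of these members are not shown to be 4-fold higher once the noise bound replaces the lower value. Over pancreas the ratio was at least 3.0-fold for Hk2, 3.61-fold for Ldhb, 2.04-fold for Phka1 and 1.67-fold for Phkg1. Over adipose tissue it was at least 3.16-fold for G6pc. Beyond the 7 genes called, Hk2 and Gyg passed over pancreas, liver and hypothalamus, and Gys1 over liver and hypothalamus. Ldhb passed over liver, adipose tissue and pancreas, and Gapdh over pancreas, hypothalamus and adipose tissue. Tpi1 and Ldha passed over pancreas only, and Gbe1 over hypothalamus only. G6pc, which was highest in liver, passed over hypothalamus and adipose tissue. Liver exceeded muscle in 1 member, Fbp1, against 6.35% of all genes.

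The other tissues differed among themselves as well. By the same rule hypothalamus was 4-fold or more above liver in 6 members (Pfkl, Eno2, Pkm, Ldhb, Pygb and Gyg), against 6.58% of all genes. Adipose tissue was so in 7 (Hk2, Pfkl, Aldoa, Pkm, Ldhb, Pygb and Gyg), against 4.37%. Of these, Pfkl, Pkm, Ldhb, Pygb and Gyg were in both lists, which share the liver arrays. Against the liver noise bound, Gyg was at least 2.4-fold higher in hypothalamus and Ldhb at least 1.82-fold higher in adipose tissue. In the opposite direction liver exceeded hypothalamus in 3 members (Gbe1, Fbp1 and G6pc), against 6.26% of all genes. It exceeded adipose tissue in 2 (Fbp1 and G6pc), against 4.17%. These counts of 3 and 2 are too small to set apart from the shares. Of the 6 fast fibre markers, only Ckm and Acta1 were above noise in adipose tissue. They read 2301 and 1063 there, against 159170 and 73138 in muscle. In liver Ckm alone was above noise, at 2395. The part of muscle fibre message in the adipose values was not tested.

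**Figure D4:**
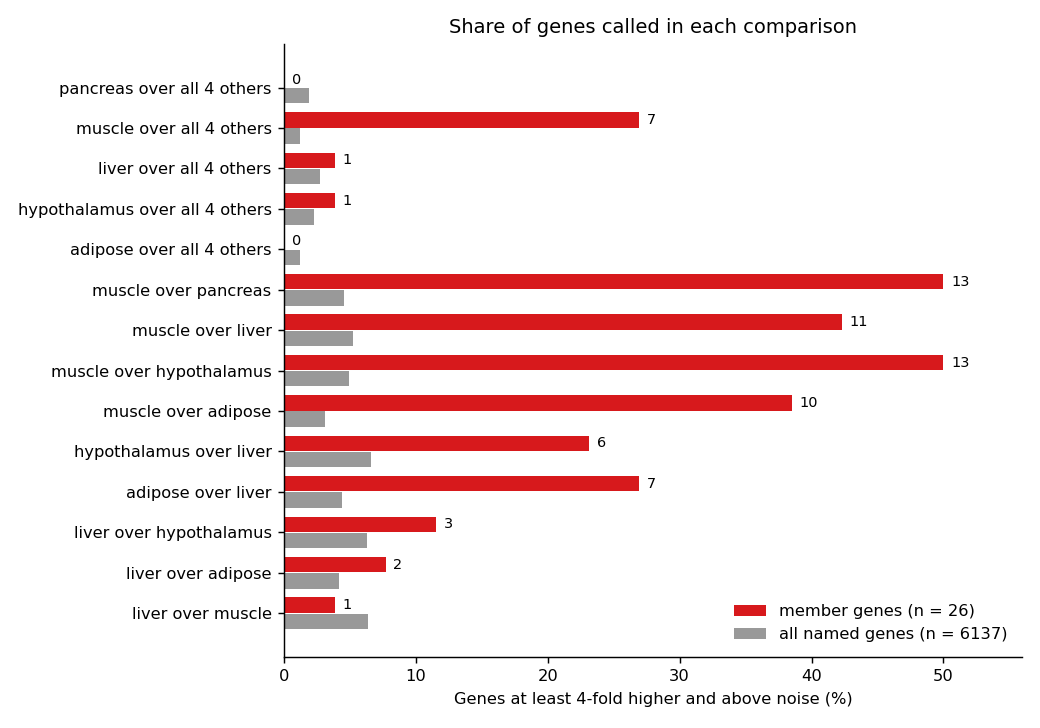
Share of genes at least 4-fold higher and above noise in each comparison of tissues, for the 26 members (red, with their number) and for all 6137 named genes (grey). Values under the median array intensity were raised to it. The members' share is 26.9% against 1.19% for muscle over all other tissues, and 3.85% against 6.35% for liver over muscle.

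Pancreas was the tissue with the fewest readable members: 6 of 26 were above noise, against 17 in muscle, 15 in hypothalamus, 15 in adipose tissue and 13 in liver. The 6 were Hk1, Aldoa, Tpi1, Gapdh, Gys1 and Pgm1, and only Hk1 was highest there. Over all genes 16.1% were above noise in pancreas and 18.7% in muscle, against 34.3% to 42.0% in the other tissues. The 3′ to 5′ ratio of the Actb controls, a sign of RNA integrity, was 4.74 for chip A and 2.69 for the other chip in pancreas. It was 2.84 and 2.61 in liver, 2.17 and 1.96 in hypothalamus, 1.56 and 1.51 in adipose tissue, and 1.41 and 1.34 in muscle. For Gapdh it was 1.56 and 1.09 in pancreas. The 3 acinar markers summed to 519206 there, and the part of these values in the low pancreas readings was not tested.

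A further list of 62 genes around the pathway (glucose carriers, regulators, shuttles and side branches) had 27 measured, of which 22 were above noise in some tissue. By the same rule 2 of the 27 were called for adipose tissue, against 1.17% of all genes. A single gene was called for each other tissue, against 1.91% for pancreas, 1.19% for muscle, 2.75% for liver and 2.26% for hypothalamus, and a count of 1 is too small to set apart from these shares. Slc2a2, the glucose carrier of liver and beta cells, read 6377 in liver, at least 2.45-fold above pancreas. Slc2a1, the carrier of the blood-brain barrier, read 870.3 in hypothalamus and between 28.1 and 147.7 elsewhere, without a ratio because the noise bound of pancreas was higher. Ppp1r3c, which targets a phosphatase to glycogen, read 1486 in muscle, at least 1.27-fold above pancreas. Pck2, the mitochondrial carboxykinase, read 1214 in pancreas against a bound of 1166.

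Both adipose calls lay outside the straight path of glycolysis. Pcx, pyruvate carboxylase, read 3825 in adipose tissue and 934.9 in liver, and Pgd, an enzyme of the pentose phosphate route that yields NADPH, read 8102 in adipose tissue and at most 493.3 elsewhere. The differences were at least 3.28-fold and at least 6.95-fold. Of 8 further readings of Pcx by sense control probe sets, 7 had adipose tissue highest and above noise and 3 passed the call. In the others that ranked adipose tissue first by a measured ratio it led by 1.47-fold to 3.79-fold. Slc2a4, the insulin-responsive carrier, is named after its values were seen: like Hk2 it was above noise in muscle at 4905 and in adipose tissue at 3645 only, which differed by 1.35-fold.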

How the data were processed

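RNA was prepared with Trizol and 10 µg per array was labelled as biotinylated cRNA for Affymetrix chips A and B, per the labels. The deposited values are linear fluorescence intensities, some of them negative, so the authors had subtracted a background or mismatch signal. The software is not given in the sources used here. Gene symbols came from platform annotation, updated by gene identifier from GRCm38.p6. Of 13179 probe sets, 7561 had a single symbol, and 55 controls per chip were left out.

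Arrays of a chip were brought to a common mean, taken after trimming 2% at each end. Where a gene had several probe sets, the one ranking highest by mean log2 value on its chip stood for it. Calls, floor and noise bound are as given above. All measured members are named, and of the further pathway list every called gene. The members and lists were chosen with earlier results of these data known. The call script was tested on simulated data. Python 3.11.15, numpy 2.4.6, pandas 2.3.3 and matplotlib 3.10.9 were used. Sequences are RefSeq's, matched by symbol for 26 of 26 members. Of 33 array probe sets, 27 are of relaxed design and may bind related genes or pseudogenes. Alternatives changed the scaling, floor, fold, noise requirement, probe sets and tissues.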

Additional observations from a re-analysis of the deposited data

How the results depend on the processing

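Counts and medians not named here moved by less than 1.5 times under the alternatives run. The count of members called for muscle was 11 at a 2-fold rule (3.44% of all genes) and 3 at an 8-fold rule (0.668%). It was 5 with 75th percentile scaling (Pkm and Pgm1 lost, 0.945% of all genes) and 5 after quantile normalization (Aldoa and Pkm lost, 1.22%). With spike scaling it was 6 (Pkm lost, 1.06%). It was 5 with the noise bound as floor (Phkg1 and Phka1 lost, 0.717%) and 6 with the floor at the 75th percentile (Phkg1 lost, 0.961%). With probe sets of relaxed design left out, 6 members remained. Of these, 2 were called for muscle (Pygm and Phka1), against 0.975% of all genes left, and 0 for liver, against 1.08%. The median difference was then 1.40 in muscle, -0.321 in pancreas and -1.21 in adipose tissue. Spike scaling moved the pancreas median to -2.42, where all genes shifted to -0.592. With the noise bound as floor it was 0.294 in pancreas, opposite in sign to the main value, and -1.25 in hypothalamus, where all genes moved to 1.45 and -1.08. Without the muscle arrays 2 members were called for liver (Fbp1 and G6pc), 2 for hypothalamus (Eno2 and Ldhb) and 1 for adipose tissue (Hk2). The shares of all genes were 2.97%, 2.75% and 1.68%, and the medians were -0.0603 in pancreas and 0.0634 in hypothalamus. Leaving out pancreas as well, an alternative chosen after seeing the data, gave the same counts of 2, 2 and 1, against 3.68%, 3.86% and 2.59% of all genes. The causes were not tested. Of 66 recomputed counts 10 moved, of 51 medians 8 and of 79 folds of single genes 19, and no called fold changed direction. Of the 51 medians 4 changed sign: that of pancreas with the noise bound as floor and that of hypothalamus without the muscle arrays, given above, and that of adipose tissue, near 0 in the main setting, in 2 of 11 alternatives. No fold could be given for 20, since the probe set or tissue was left out. With 1 array per tissue, the noise bounds of pancreas and muscle limit what can be read as absent.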
